A study of Mus musculus with 47 samples.

Results

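The 3 arrays labelled MkP were compared with the other 44 arrays of the series. MkP is the usual abbreviation for the megakaryocyte progenitor, a reading that the labels do not spell out. Arrays were assigned by the first word of the sample title, so the 3 MkP arrays are 3 of 47. All arrays came from bone marrow of adult C57Bl6 mice, with RNA amplified from 2000 purified cells per array and hybridised to an Affymetrix expression array. The other 16 groups are labelled LTHSC and STHSC (2 arrays each), MkE (4), PreCFUE, CFUE and ProE (3 each), LMPP (5), ETP and GMP (3 each), PreB (4), and GM, CLP, ProB, CD4, NKmature and IgM+SP (2 each). No group carries a treatment or an altered allele, and the labels name no sorting markers, age in weeks, sex or number of animals. Arrays of a group are labelled biological replicates; since no label names the animals, the p-values below measure the spread between these arrays.

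Megakaryocytes are the large, polyploid bone marrow cells that shed platelets. Their committed progenitors already transcribe genes for platelet adhesion receptors, for the proteins stored in alpha granules and for the microtubules that later extend proplatelets, and they share the transcription factors Gata1, Gata2 and Tal1 with the erythroid branch. Within the marrow, long-term stem cells are known to carry part of the same programme, Vwf being the best known example. In such bulk samples, fewer cells of a type and less RNA per cell cannot be told apart.

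Promoters of 4 of the genes that stood highest in MkP are shown first, because GATA and ETS family factors are the textbook regulators of this lineage and the genes below vary in what their promoters hold. Each sequence is the 250 bases before the RefSeq start in build GRCm38.p6, in the direction of transcription. Capitals mark AGATAA or TGATAA, the letters bound by GATA factors, and GGAA, the ETS core, on either strand, so that a match on the other strand shows as its reverse complement. These 4 were chosen after the matches had been seen.
Pf4 (chr5:90772185-90772434, plus strand): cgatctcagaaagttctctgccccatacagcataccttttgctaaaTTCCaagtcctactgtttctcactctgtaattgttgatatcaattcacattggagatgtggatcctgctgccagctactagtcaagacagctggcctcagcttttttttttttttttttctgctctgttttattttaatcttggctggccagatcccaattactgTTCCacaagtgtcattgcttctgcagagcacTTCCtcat
Itga2b (chr11:102469884-102470133, minus strand): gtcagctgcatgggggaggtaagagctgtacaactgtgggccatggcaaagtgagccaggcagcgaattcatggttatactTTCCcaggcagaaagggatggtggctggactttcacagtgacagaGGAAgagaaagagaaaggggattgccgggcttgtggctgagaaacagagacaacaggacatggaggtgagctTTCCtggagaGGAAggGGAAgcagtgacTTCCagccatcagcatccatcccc
F2rl2 (chr13:95696670-95696919, plus strand): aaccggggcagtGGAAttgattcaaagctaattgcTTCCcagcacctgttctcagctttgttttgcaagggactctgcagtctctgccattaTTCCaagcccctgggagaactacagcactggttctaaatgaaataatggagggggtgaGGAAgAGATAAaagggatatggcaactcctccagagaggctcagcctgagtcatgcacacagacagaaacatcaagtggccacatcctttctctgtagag
Clec1b (chr6:129397047-129397296, plus strand): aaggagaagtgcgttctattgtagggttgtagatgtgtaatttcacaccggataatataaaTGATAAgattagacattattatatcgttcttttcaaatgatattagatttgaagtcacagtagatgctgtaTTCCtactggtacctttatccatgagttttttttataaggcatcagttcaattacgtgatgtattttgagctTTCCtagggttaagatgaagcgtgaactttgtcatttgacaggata
The F2rl2 window holds AGATAA at 95 bases before the start, and the Clec1b window holds TGATAA at 189 bases before it. The Pf4 and Itga2b windows hold no GATA form in these bases, with 3 and 6 matches to GGAA. Of the 23 genes called higher in MkP than in every other group (defined below), 20 had 22 promoters in the table; 5 of the 22 (22.7%) held a GATA form and 22 held GGAA. Among all 32851 promoters of this length 26.5% held a GATA form and 93.4% held GGAA, and among the 14287 promoters of genes tested here the shares were 18.4% and 93.0%. The matches describe letters only.

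Values are log2 of the deposited linear intensities, and a level is compared between groups for the same probe set, never between genes. The 3 MkP arrays correlated with each other at 0.971 to 0.979 over the genes tested, and the median SD of a gene over them was 0.26. All 3 carried Xist and no Eif2s3y signal, as did MkE, PreCFUE, CFUE, GM, ProB, CD4 and 2 PreB arrays. The groups LTHSC, STHSC, GMP, ProE, CLP and IgM+SP held only arrays with Eif2s3y, and every LMPP, ETP and NKmature array carried Eif2s3y too, on some arrays together with Xist. In these 9 comparisons the sex of the animals, and whatever else went with it, cannot be told apart from the population. Transcripts of late neutrophil granules differed among the MkP arrays: the mean level of the 11 list genes was 6.56, 4.31 and 5.41 on replicates 1, 2 and 3, within the range of the other group means (3.89 to 9.18). Ngp, a granule protein of maturing neutrophils, was at 10.22, 5.28 and 7.85 there, and S100a8, an abundant calcium-binding protein of neutrophils, at 8.16, 4.04 and 6.38. None of the 11 was called against the mean of the other groups. All 11 were called higher with the sex-transcript class as a block, a term for whether an array carried Xist, Eif2s3y or both. PreB was the only group with arrays of Xist alone and arrays of Eif2s3y alone, so its 4 arrays set the step between these classes. Those arrays ran from 3.56 to 9.42 on this list, and results under the block cannot separate sex from population. Whether the granule transcripts bear on the results below was not tested. The mean level of 11 endothelial and stromal markers was 4.80, 4.63 and 4.63 on the MkP arrays. The other group means ran from 3.41 to 5.15, and 13 of them lay below the lowest MkP array. Cdh5, the endothelial cadherin, was at 3.20, 3.16 and 2.94, and Col1a1, a fibroblast collagen, at 2.98, 2.96 and 3.07, below the median of all values (3.89). Col1a2, the partner chain of that collagen, was at 5.51, 5.71 and 6.46 in MkP and between 6.62 and 7.08 in MkE, and its difference from the mean (1.34, limma, adjusted p = 0.064) was not called. Tek, Tie1 and Kdr, tyrosine kinase receptors that stem cells also express, were the 3 members of that list called higher, and none of them was called higher than in LTHSC. The part of this list in the results below was not tested.

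The first question was which genes separated MkP from the whole series. A gene was called when limma gave a Benjamini-Hochberg adjusted p under 0.05 and a difference of at least 2-fold. Against the equal-weight mean of the other 16 groups, 489 of 13949 genes (3.51%) were called higher in MkP and 1050 (7.53%) lower. Higher calls were thus 31.8% of all calls, a share that became 53.8% when the arrays were quantile normalized again and 23.6% when each was centred on its median. The median difference of all genes was -0.09 as deposited, 0.06 after quantile normalization and -0.17 after centring, so the balance of higher and lower calls depended on the scaling. Against single groups, the fewest calls were made against LMPP (410 higher, 1132 lower) and MkE (413 and 1193), and the most against CD4 (1744 and 2786). The share of genes called higher was 2.94% against LMPP, 3.16% against GM, 5.56% against GMP, 5.63% against STHSC and 6.93% against ETP. It was 7.83% against CFUE, 9.77% against ProB, 10.1% against PreB, 10.3% against NKmature, 10.6% against ProE, 12.1% against IgM+SP, 12.5% against CD4 and 13.1% against CLP. The share called lower ran from 5.71% against CLP, 8.12% against LMPP and 8.39% against STHSC through 13.1% against GM, 13.9% against IgM+SP, 14.4% against ETP and 15.9% against GMP. It reached 16.1% against ProB, 17.7% against PreB, 17.8% against CFUE, 18% against ProE, 20% against CD4 and 20.4% against NKmature.

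**Figure D1:**
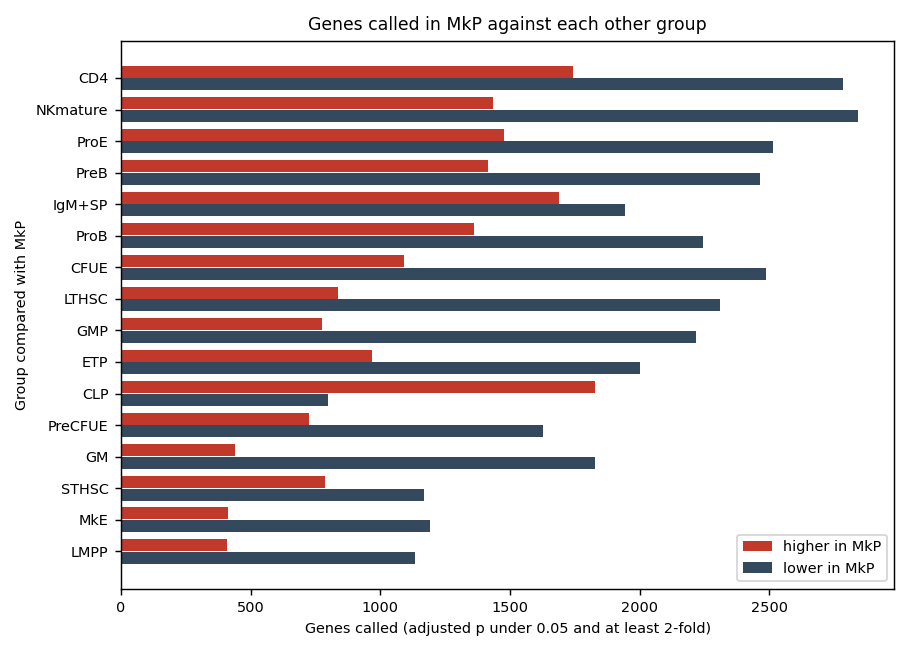
Number of genes called in MkP against each of the other 16 groups (adjusted p under 0.05 and at least 2-fold), with higher calls in red and lower calls in dark; groups are ordered by the total. Lower calls outnumber higher calls in every comparison except that with CLP (1827 higher, 797 lower).

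Demanding a call against each of the 16 groups left 23 genes higher (0.165% of those tested) and 8 lower (0.0574%). The 23 were Alox5, Cavin2, Clec1b, Ctdspl, Cyp2c29, Exoc3l2, F2rl2, Homer2, Itga2b, Kcnj5, Lhfp, Mansc1, Pde10a, Pde5a, Pf4, Ppbp, Psd3, Timp3, Treml1, Tuba8, Tubb1, Ufsp1 and Vwf. For 20 of them every MkP array lay above every one of the other 44 arrays; Ppbp, Tubb1 and Clec1b overlapped with at least 1 array. A further 34 genes were called higher in 15 comparisons, and LTHSC was the missing group for 12 of these and MkE for 5. The MkP mean was the highest of the 17 group means for 593 genes and the lowest for 475, so that most of these did not pass the call against every group.

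**Figure D2:**
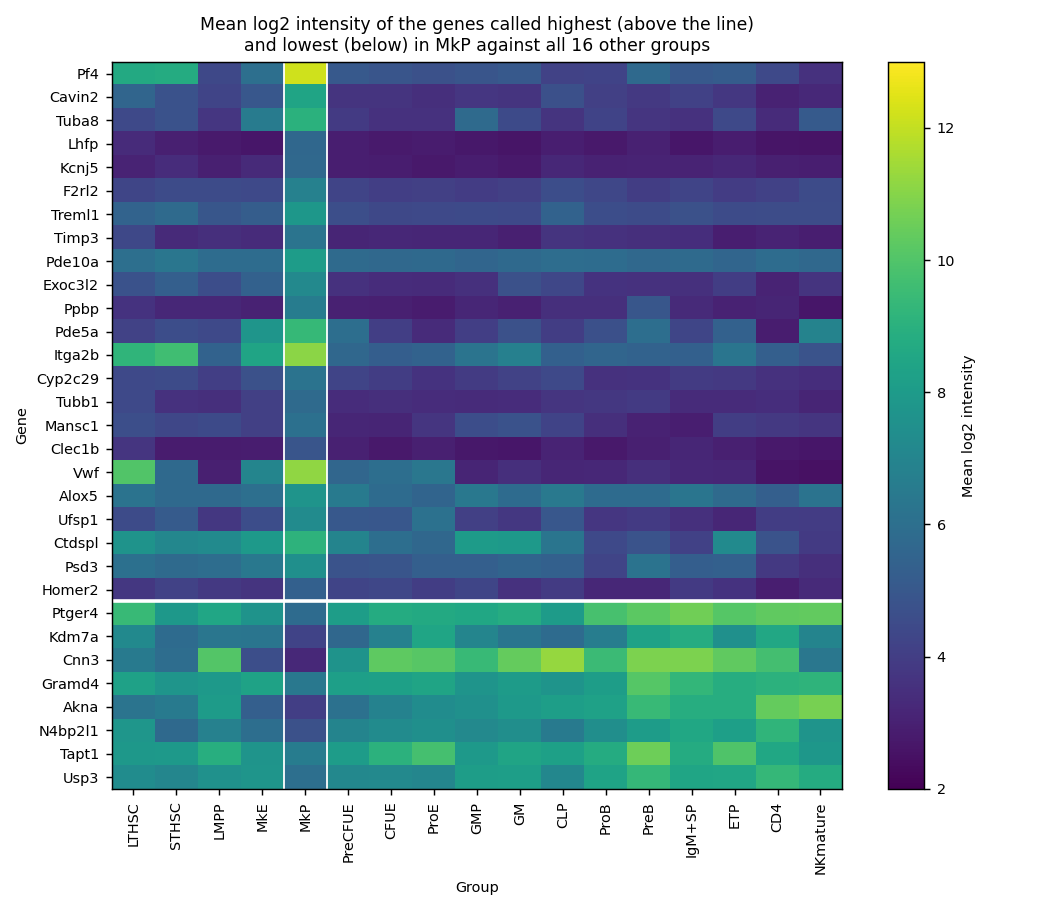
Mean log2 intensity in each of the 17 groups (columns) of the 23 genes called higher in MkP than in all 16 others (above the line) and the 8 called lower (below it). Colours are to be compared along a row, since rows are different probe sets; the MkP column stands out in each row, with LTHSC or MkE often next.

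Among the proteins stored in alpha granules, Pf4, the platelet chemokine platelet factor 4, had the largest difference. Its log2 intensity was 12.27, 12.13 and 12.16 on the MkP arrays against a mean of 5.31 over the other groups. The other 44 arrays ran from 3.50 to 10.26 with a median of 4.86, so no other array reached MkP. The difference from the mean of the other groups was 6.87 ± 0.57 (SE, limma, adjusted p = 3.8e-12). The next groups were STHSC (8.19 and 9.32 on its 2 arrays) and LTHSC (8.19 and 9.19), and MkE stayed between 5.73 and 6.23. Left without STHSC replicate 1, the smallest of the 16 differences was 2.87 with an adjusted p of 0.087, which ended the call against every group.

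Vwf, which encodes the von Willebrand factor that tethers platelets to damaged vessels, was at 11.12, 11.17 and 11.29 in MkP and at 9.73 and 10.29 in LTHSC. No array of the remaining groups came near them: STHSC stood at 4.44 and 7.09 and MkE between 6.79 and 7.47. Vwf was 6.71 ± 0.30 above the mean of the other groups (limma, adjusted p = 1.0e-19). Its difference from LTHSC, 1.19 (adjusted p = 0.038), was the least secure of the 16: the call ended without any 1 of the MkP or LTHSC arrays (0.90 to 1.47, adjusted p 0.056 to 0.24) and under centring (1.10).

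**Figure D3:**
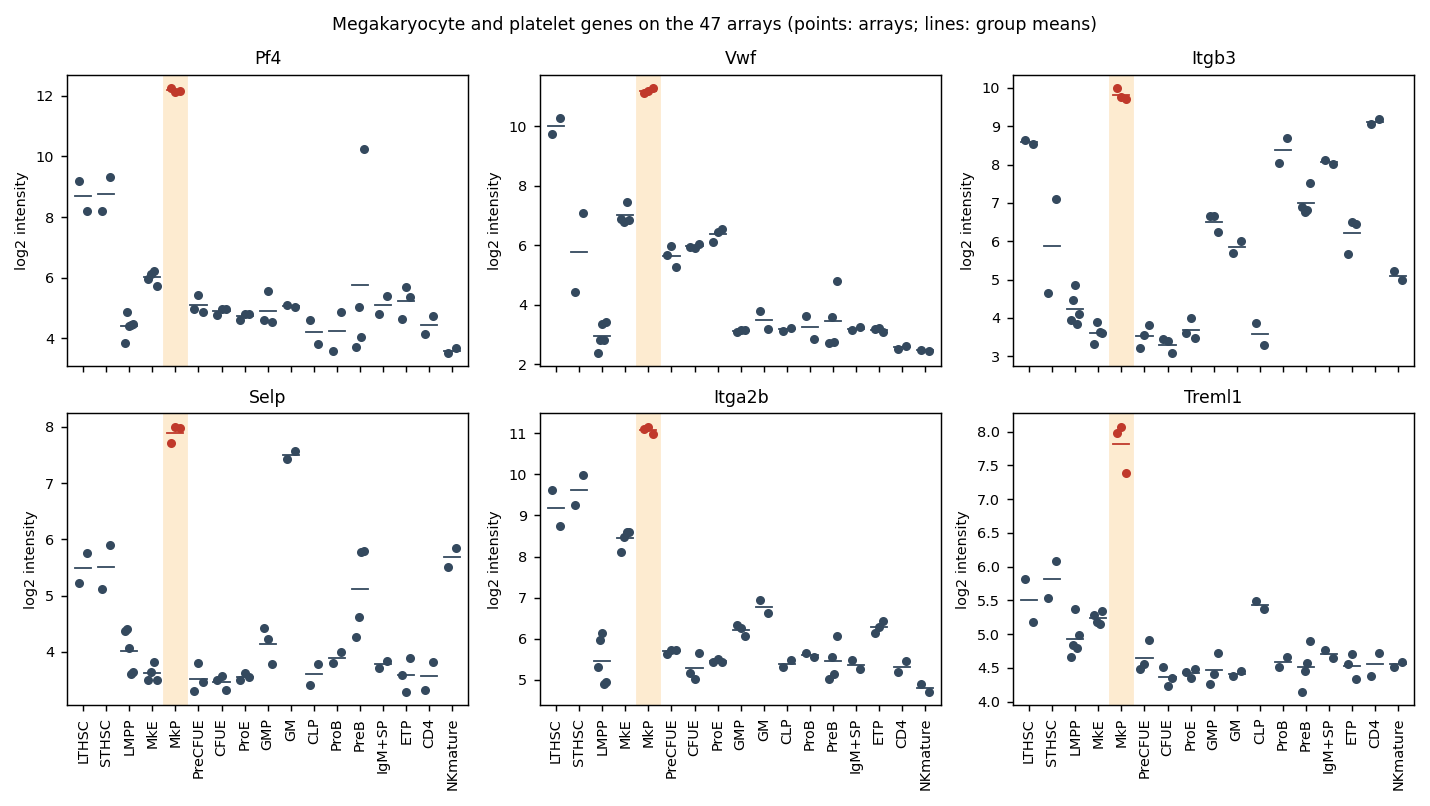
Log2 intensity of Pf4, Vwf, Itgb3, Selp, Itga2b and Treml1 on all 47 arrays by group; points are arrays, short lines are group means, and MkP is in red on a shaded band. MkP is the highest group in each panel, with LTHSC the nearest for Vwf, CD4 for Itgb3, GM for Selp and STHSC for Pf4, Itga2b and Treml1.

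The other cargo genes split into a high and a low set. Of the 25 alpha granule genes tested, 10 were called higher and 3 lower against the mean, with a median difference of 0.59 (-0.09 over all genes). Mmrn1, a multimerin that binds coagulation factor V, was at 9.06, 8.95 and 9.06 in MkP and at 8.58 and 9.43 in LTHSC. MkP and LTHSC overlapped for Mmrn1, while MkE (3.60 to 4.20) and PreCFUE (3.14 to 3.43) lay far below. Clu, the secreted chaperone clusterin, was at 7.85, 8.22 and 8.39 (difference 2.75 ± 0.23), with LTHSC next at a mean of 7.61. Timp3, a metalloproteinase inhibitor, was at 6.59, 5.91 and 6.22 against a highest other array of 4.53. F5, coagulation factor V itself, was at 5.08, 4.79 and 6.13 (difference 1.74 ± 0.21), second to PreB at a mean of 6.40. Angpt1, the Tek ligand angiopoietin, was at 10.35, 10.67 and 9.96, not called against MkE (difference 0.24, adjusted p = 0.54) and below LTHSC (-1.09), a call that ended without LTHSC replicate 2 (-0.72) or MkP replicate 3 (-0.90). Not every cargo gene of mature platelets was high: Thbs1 (4.10, 4.08 and 3.82), Fn1 (4.33, 4.10 and 4.20) and Pdgfa (3.65, 4.19 and 3.79) lay near the median of all values in MkP, and F13a1, the transglutaminase that crosslinks fibrin, was called lower (-1.43, but 0.04 with the sex-transcript class as a block). The largest fall in the list was Lgals1, a galectin, described with the lowest genes.

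Ppbp, the precursor of the platelet basic protein chemokines, was at 7.06, 5.88 and 6.88 in MkP, 3.35 ± 0.49 above the mean of the other groups (limma, adjusted p = 1.1e-06). One other array was higher, PreB replicate 4 at 8.63. Without PreB replicate 1 or 3, or without MkP replicate 1 or 3, the call against every group ended (smallest difference 0.92 to 1.53, adjusted p 0.081 to 0.19), as it did with a floor of 16 on the intensities (1.17).

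Adhesion receptors formed the list with the largest share of higher calls against the mean. Of 20 tested, 12 were called higher and 1 lower against the mean, with a median difference of 1.85. The 2 chains of the fibrinogen receptor were both in the high set. Itga2b, its alpha chain, was at 11.11, 11.17 and 10.99 in MkP. The 2 STHSC arrays came next at 9.24 and 9.99, MkE lay between 8.12 and 8.60 and PreCFUE between 5.61 and 5.73, so the groups did not overlap. The Itga2b difference from the mean of the other groups was 4.82 ± 0.19 (limma, adjusted p = 8.3e-21), and the call against all 16 groups held under each of 56 alternatives.

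Itgb3, the beta chain, had another pattern. It was at 10.005, 9.76 and 9.71 in MkP, at a mean of 9.13 in CD4 and at 8.53 and 8.65 in LTHSC. MkE (3.32 to 3.91) and PreCFUE (3.21 to 3.80) were 6.21 and 6.30 below MkP, against 2.64 and 5.40 for Itga2b. With probe sets averaged, the Itgb3 difference from MkE was 3.32. The gene missed a call only against CD4. Selp, the P-selectin that platelets bring to the surface on activation, was at 7.71, 8.01 and 7.97 in MkP, against 7.56 on the highest GM array and 3.50 to 3.82 in MkE. Its difference from the mean was 3.52 ± 0.21 (limma, adjusted p = 3.3e-16), and GM was the group against which it missed the call.

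Treml1, an alpha granule receptor exposed on activated platelets, was at 7.98, 8.07 and 7.39, above the highest STHSC array at 6.09. Clec1b, the platelet receptor for podoplanin, was dim and spread out in MkP (3.73, 5.74 and 5.19). Its lowest MkP array overlapped with LTHSC, which averaged 3.69, and without MkP replicate 2 the smallest of the 16 differences fell to 0.78 (adjusted p = 0.06). Within the receptor complex for von Willebrand factor, Gp5 was at 7.65, 7.75 and 7.24 and Gp9 at 7.48, 7.98 and 7.30. Gp5 did not differ by the call from MkE (difference 0.71, adjusted p = 0.083), whereas Gp9 was 1.37 higher in MkP than in MkE. Cd9, a tetraspanin of the platelet surface, was at 8.32, 8.99 and 8.32 (difference 3.02), with CD4 next at 8.10, and Itga6, a laminin receptor chain, at 8.87, 9.16 and 8.87 (2.00). Esam, a junctional adhesion molecule, was higher than the mean by 1.79 and lower than LTHSC by 2.15. The collagen receptor chain Itga2 (3.33, 3.25 and 3.47) and Pecam1 (3.74, 3.69 and 3.95) were dim in MkP and not called.

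The brightest probe set of Gp1bb, a further chain of that complex, gave no call (4.49, 4.20 and 4.84, difference 0.47). Its second probe set read 9.21, 9.34 and 9.02 in MkP and 5.38 at most elsewhere, a difference of 5.84 ± 0.22. The 2 probe sets therefore give opposite accounts of this gene, and which one reads the transcript was not tested. For that reason every probe set was also fitted on its own, an alternative chosen after seeing the data: 49 of 25060 probe sets (0.196%), from 38 genes, were called higher in all 16 comparisons. The 38 included all 23 genes above and 15 more, and 11 probe sets (0.0439%) were lower in all 16. Among the 15 were Rab27b, a small GTPase of dense granule secretion, with 3 of its 4 probe sets (1 of the 3 at 7.89, 9.05 and 7.65, difference 4.74), and Fli1, described with the transcription factors.

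Receptors for soluble agonists were less uniform. Of 16 tested, 4 were called higher and 2 lower against the mean, with a median of 0.26. F2r, the protease-activated thrombin receptor, was at 12.29, 12.18 and 12.43 in MkP and at a mean of 12.15 in MkE, so no difference between the 2 groups was detected (0.14, adjusted p = 0.91), and its difference from the mean was 3.51 ± 0.58. F2rl2, the related receptor that serves as a thrombin cofactor on mouse platelets, behaved differently. It was at 7.24, 6.34 and 6.88 in MkP and between 3.80 and 4.83 on the other 44 arrays, a flat background in every other population including MkE (4.12 to 4.76). The difference, 2.58 ± 0.15 (limma, adjusted p = 4.5e-16), kept its call against all groups under each of the 56 alternatives. Ptger3, a receptor for prostaglandin E that enhances platelet aggregation, was at 9.09, 9.38 and 9.59 (difference 3.07), with ETP next at 8.77, and P2rx1, the ATP-gated channel of platelets, at 5.93, 7.02 and 6.43 (1.64). F2rl3, a thrombin receptor of mature platelets, was at 3.91, 4.06 and 3.88 and not called, nor was P2ry12, the ADP receptor (3.16, 3.21 and 3.30). The receptors lower than the mean were Il6st (-1.83), the shared signalling chain of the interleukin-6 family, and Csf2rb (-1.45), a shared cytokine receptor chain. The call of Il6st ended when its probe sets were averaged (-0.50), and that of Csf2rb likewise (-0.97).

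In granule biogenesis and secretion, 4 of 25 genes were called higher and 1 lower, with a median of 0.12, beside 3.51% of all genes called higher. The 4 became 7 after quantile normalization and with the sex-transcript class as a block. The largest difference was in Slc35d3, a transporter needed for dense granule formation. It was at 9.31, 9.03 and 8.79 in MkP and at a mean of 9.38 in ETP. All remaining groups were lower, with LTHSC at 3.60 and 5.12 and MkE between 2.89 and 3.19, and the difference from MkE was 6.02. Rab38, a GTPase of lysosome-related organelles, was at 10.55, 10.68 and 10.14 (2.43) but differed from MkE by only 0.16, and Slc18a2, the vesicular monoamine transporter, at 5.73, 5.97 and 6.02 was above the mean (1.75) and below MkE (-1.75). Most Hermansky-Pudlak genes (Hps1, Hps4, Hps5 and Hps6) differed by less than 2-fold from the mean, and Hps3 was called lower (-1.24, but -0.66 with its probe sets averaged and -0.95 after quantile normalization).

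The cytoskeletal list held the gene most clearly separated in relation to its error. Tuba8, an alpha-tubulin, was at 8.89, 9.63 and 8.60 in MkP, between 6.30 and 6.88 in MkE and between 3.83 and 3.91 in PreCFUE. The difference from the mean of the other groups was 4.73 ± 0.16 (limma, adjusted p = 3.2e-23). Tubb1, the beta-tubulin of the platelet marginal band, was lower and more spread in MkP (4.97, 6.33 and 6.11; difference 2.22 ± 0.24), with LTHSC next at 4.45, and without LTHSC replicate 2 its smallest difference was 0.94 (adjusted p = 0.12). Of all 32 genes tested, 6 were called higher and 1 lower against the mean (median 0.28); after quantile normalization 12 were called higher. Vcl, which links actin to integrins, was at 10.40, 10.73 and 10.33 (2.16), Zyx, a focal adhesion protein, at 9.41, 9.90 and 9.50 (2.01), and Mylk, a myosin light chain kinase, at 7.89, 6.80 and 7.30 (2.31, but 0.78 with its probe sets averaged). Lcp1, the leukocyte actin bundler, was the gene called lower, at 6.80, 6.92 and 6.21 (-3.21).

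Among signalling genes of platelets, 17 of 34 were called higher and 1 lower against the mean, with a median of 0.93. Pde5a, the cGMP phosphodiesterase of platelets and smooth muscle, was at 9.28, 9.52 and 9.32, above every MkE array (7.48 to 8.05) and 4.55 ± 0.22 above the mean of the other groups (limma, adjusted p = 1.0e-18). Gucy1a1, a subunit of the nitric oxide-sensing enzyme that makes cGMP, was at 6.69, 7.77 and 7.62 with only LTHSC near it (6.58 and 7.60), and Prkg1, the kinase that cGMP activates, at 7.81, 8.27 and 7.84 (3.05), with LTHSC again next at 8.44. Plek, the major protein kinase C substrate of platelets, was at 11.36, 11.50 and 10.99 (3.17). Rap1b, the GTPase that turns on the fibrinogen receptor, was at 12.98, 13.15 and 12.61 (1.70), and Rgs18, a regulator of G protein signalling, at 10.33, 10.69 and 10.16 (2.75), close to ETP at 10.20. Tbxas1, the thromboxane synthase, was above the mean by 1.92 and below LTHSC by 2.44. Sh2b3, an adaptor that restrains cytokine signalling, was the 1 gene called lower (5.76, 6.57 and 5.84, -1.47, but -0.91 with its probe sets averaged). Gp1ba and Ptgs1 were not analysed here.

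Several of the 23 highest genes belong to none of these lists. Cavin2, a coat protein of caveolae, was at 7.99, 8.61 and 8.72 against 5.86 on the highest LTHSC array (difference 4.40 ± 0.28). Another of its probe sets read 10.16, 10.27 and 9.79 in MkP and a mean of 8.74 in LTHSC, a difference of 1.33. Pde10a, another cyclic nucleotide phosphodiesterase, was at 8.03, 8.45 and 7.77 against 6.71 on the highest other array. Kcnj5, a potassium channel subunit opened by G proteins, was at 5.02, 6.48 and 5.63 and no higher than 3.86 elsewhere. Lhfp was at 5.78, 5.72 and 5.57 and no higher than 3.67 elsewhere. Alox5, the lipoxygenase that starts leukotriene synthesis, was at 7.90, 7.65 and 7.54, with PreCFUE next at a mean of 6.52. Exoc3l2 (7.51, 6.75 and 7.27), Mansc1 (6.27, 5.97 and 5.99) and Cyp2c29 (6.55, 5.67 and 6.31) kept their calls against all groups under each of the 56 alternatives, as did Cavin2, Itga2b, F2rl2, Pde5a, Timp3, Treml1 and Tuba8. Without 1 array the call ended for Alox5 (LTHSC replicate 2, smallest difference 0.97), Ufsp1 (MkP replicate 3, 0.92), Ctdspl (MkP replicate 2, 0.80; GM replicate 2, 1.08; GMP replicate 3, 1.00), Psd3 (MkP replicate 2, 0.91; LTHSC replicate 1 and MkE replicate 1, both 0.97) and Homer2 (MkP replicates 2 and 3, CFUE replicate 2 and GMP replicate 2, 0.94 to 1.00). With probe sets averaged, the smallest difference fell to 0.83 for Pde10a, 0.64 for Psd3 and 0.30 for Homer2, which ended their calls.

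Transcription factors of the lineage were higher in MkP than in the mean population, but most of them were not its own. Of 30 tested, 14 were called higher and none lower against the mean, with a median of 0.38 against -0.09 over all genes. Gata1, the master factor of megakaryocytes and erythroid cells, was at 10.39, 10.44 and 9.90 in MkP and highest in ProE at 11.58. Gata2, which acts earlier, was at 10.07, 10.22 and 9.89 (difference 2.97), with no call against MkE (-0.24, adjusted p = 0.44), and Zfpm1, the Gata1 cofactor, at 9.86, 10.35 and 9.65 (2.38). Meis1, a homeobox factor of stem cells and megakaryocytes, was at 10.46, 10.68 and 10.07 (3.77), below LTHSC at 11.38. Nfe2 (9.11, 9.38 and 8.76), which drives late platelet formation, Tal1 (9.01, 8.74 and 8.75) and Gfi1b (8.11, 8.10 and 7.90) were each above the mean by 1.88 to 1.97 and not called against MkE.

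Fli1, the ETS factor that favours megakaryocytes over red cells, was among the factors called higher in MkP than in both MkE and PreCFUE. Its brightest probe set read 9.52, 9.31 and 9.67 in MkP, and NKmature came next at 9.47. MkP was 2.12 above MkE and 4.88 above PreCFUE. Its second probe set read 9.07, 9.54 and 9.89 and was called higher than in all 16 groups, the nearest again being NKmature at 8.44. Klf1, the erythroid factor opposed to Fli1, was at 8.51, 8.65 and 7.81, which is 2.98 below MkE and 3.43 below PreCFUE (limma, adjusted p = 4.1e-07 and 5.8e-08).

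The second question was how MkP differed from MkE, the group whose mean profile correlated best with it (Pearson's r 0.953 over the genes tested, which are not independent replicates). With 413 genes (2.96%) higher and 1193 (8.55%) lower in MkP, higher calls were 25.7% of the calls as deposited and 53.3% after quantile normalization. The 8 largest rises whose arrays did not overlap were Itgb3 (6.21), Pf4 (6.18), Slc35d3 (6.02), Mmrn1 (5.11), Gucy1a1 (4.55), Selp (4.28), Fhl1 (4.23) and Vwf (4.19). Of the adhesion receptors 10 of 20 were higher and none lower (median 1.05), and of the alpha granule genes 8 of 25 were higher and 1 lower. By contrast, of the 30 transcription factors 3 were higher (Fli1, Mecom and Ets1) and 4 lower (Myb, Myc, Hoxa9 and Ldb1), with a median of -0.33, and after quantile normalization 6 were higher. Myb, a factor of proliferating progenitors, was at 11.38, 11.49 and 11.32 in MkP and 1.32 lower than in MkE, where it was highest of all groups at 12.72. Ets1 was 1.64 higher than MkE at its brightest probe set and 0.69 with its probe sets averaged, and Mecom 2.48 and 0.95. The call of Hoxa9 (-1.03) ended without any 1 of 6 MkP or MkE arrays (-0.92 to -1.09).

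Erythroid genes were lower than in MkE. Of 18 erythroid genes none was higher and 7 were lower, with a median of -0.92. Car1, the carbonic anhydrase of early erythroid cells, was at 7.81, 5.62 and 6.71 in MkP and between 12.29 and 12.70 in MkE. Rhag, a red cell membrane channel, was at 3.48, 3.25 and 3.63 against 7.40 to 7.90, and Ermap, an erythroid membrane protein, at 6.78, 5.10 and 6.19 against 10.01 to 10.73. Neither gene overlapped between the 2 groups. The largest fall from MkE was in Trib2, a pseudokinase, at 3.37, 3.87 and 3.93 in MkP and between 10.35 and 10.68 in MkE, a difference of -6.82 on its brightest probe set and -2.54 with its probe sets averaged. Scin, an actin-severing gelsolin relative, fell by 5.32 and Ugcg, which makes glucosylceramide, fell by 4.91 on the log2 scale. Haem synthesis genes had 5 of 16 lower, but 2 after quantile normalization and 3 without MkP replicate 3. Mitotic genes moved the other way, with 12 of 26 higher and 1 lower than in MkE (median 1.00); the 12 became 22 after quantile normalization, 7 with probe sets averaged and 5 without MkP replicate 2, so their number is unsettled.

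Against PreCFUE, 724 genes (5.19%) were higher and 1628 (11.7%) lower in MkP, with higher calls at 30.8% of the total and 52.6% after quantile normalization. The largest rises were Pf4 (7.10), Plek (7.09), Slc35d3 (6.33), Itgb3 (6.30), Sla (5.80), Mmrn1 (5.77), Itih5 (5.70) and Tmsb4x (5.65). Plek was at 3.94 to 4.69 in PreCFUE, and Tmsb4x, the actin-sequestering thymosin, at 11.85, 11.94 and 11.82 in MkP and 5.58 to 6.57 in PreCFUE. Signalling genes had 20 of 34 higher and none lower (median 1.34), and the cytoskeletal list 12 of 32 higher and 2 lower. Spectrin and tropomyosin genes were among the 12: Sptan1, at 10.15, 10.28 and 10.34 in MkP, was 4.69 higher than in PreCFUE, and Tpm4, at 8.46, 8.65 and 8.09, was 4.72 higher. Myh10, a nonmuscle myosin whose silencing accompanies polyploidisation, was at 5.82, 4.61 and 5.40 in MkP, between 8.42 and 9.05 in MkE and between 10.42 and 11.17 in PreCFUE. Erythroid genes had 13 of 18 lower and none higher (median -2.89), led by Car1 (-6.50), Rhag (-5.97) and Ermap (-5.93). Haem genes had 8 of 16 lower and ribosome biogenesis genes 15 of 18, the latter 6 after quantile normalization.

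**Figure D4:**
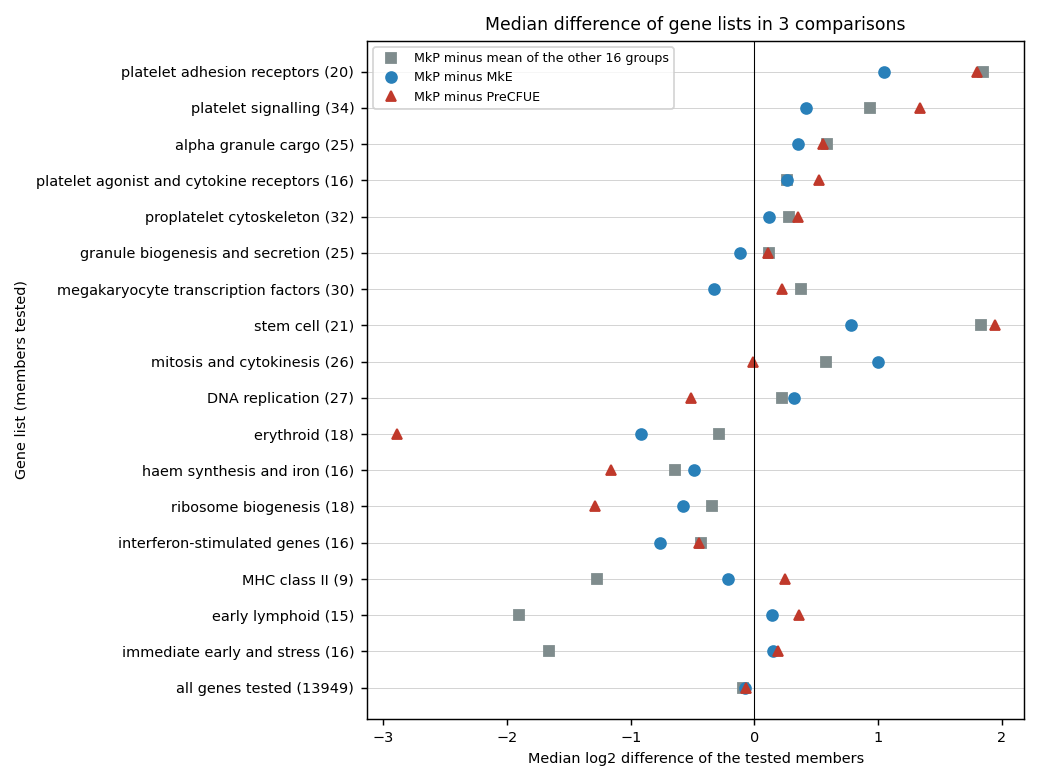
Median log2 difference between MkP and the mean of the other 16 groups (grey squares), MkE (blue circles) and PreCFUE (red triangles) for each gene list and for all genes tested. Adhesion receptors lie to the right of all genes in each comparison (1.85, 1.05 and 1.80), and erythroid genes to the left (-0.29, -0.92 and -2.89).

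LTHSC shared several of the highest genes with MkP, and the stem cell list showed how far that went. Against the mean of all groups 12 of its 21 genes were called higher in MkP and 2 lower (median 1.83), and against LTHSC 1 (Vwf) was higher, where 5.99% of all genes were, and 13 were lower, where 16.6% were, with a median of -2.15. Fhl1, a LIM domain protein, was at 8.75, 8.44 and 9.25 in MkP and at 8.11 and 8.46 in LTHSC, and Trpc6, a calcium channel, at 6.28, 6.72 and 6.57 against an LTHSC mean of 7.59. Mycn, a Myc family factor, was at 10.61, 10.75 and 10.11 in MkP and was not called against LTHSC (0.18, adjusted p = 0.76). Procr, the protein C receptor that marks stem cells, was at 3.14, 3.72 and 3.34 against 10.31, and Hlf, a stem cell factor, at 5.84, 6.19 and 6.30 against 11.04, so neither was shared. Of the 26 mitotic genes, 24 were higher in MkP than in LTHSC and none lower (median 2.50), and 9 of the 24 lost the call with the sex-transcript class as a block. The LTHSC arrays disagreed on this list, with mean levels of 5.12 and 7.03 against 8.47, 8.85 and 8.24 in MkP. The size of the difference thus varied with the LTHSC array. Of 16 immediate early and stress genes, which respond within minutes to handling and stimulation, 13 were lower than in LTHSC (median -3.67), 11 lower than the mean, and none called against MkE. Fos was at 4.56, 3.39 and 4.15 in MkP and at 12.89 and 12.93 in LTHSC. The 11 became 7 without MkP replicate 2 or 3. LTHSC and MkP share no sex-transcript class.

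The 8 genes lowest in MkP of all groups were Akna, Cnn3, Gramd4, Kdm7a, N4bp2l1, Ptger4, Tapt1 and Usp3, and for each the highest MkP array lay below the lowest of the other 44. Cnn3, a calponin that binds actin, was at 3.34, 3.10 and 3.39 in MkP. MkE was next at 4.26 to 4.92, and the other arrays had a median of 9.96. Its difference from the mean of the other groups, -5.71 ± 0.23 (limma, adjusted p = 1.2e-20), was the largest fall in that comparison. With a floor of 16 on the intensities, the nearest difference of Cnn3 from another group was -0.63 and its largest adjusted p was 0.12 (limma). That ended its call against every group. Ptger4, a prostaglandin E receptor coupled to cyclic AMP, was at 5.97, 6.38 and 5.14, with MkE the nearest at 7.36 to 7.97 (difference from the mean -3.29). Ptger3, which is coupled to the opposite response, was among the high genes. Akna, an AT-hook protein, was at 4.50, 3.71 and 3.96 (-3.86), and Kdm7a, a histone demethylase, at 5.09, 4.31 and 3.22 (-2.84).

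These low calls rested more on the probe set than the high ones did. With all probe sets of a gene averaged, 1 gene (Gramd4) was still called lower in all 16 comparisons, and 26 were called higher, 20 of them among the 23. Other settings also ended single calls. Quantile normalization ended those of Gramd4, Tapt1 and Usp3, centring that of Usp3 and a replicate block that of Tapt1. With the sex-transcript class as a block, Ptger4 (nearest difference -0.81), Gramd4 (-0.93) and Usp3 (-0.74) lost the call. Without 1 array the call ended for Kdm7a (MkP replicate 3, -0.99) and Gramd4 (STHSC replicate 2, -0.87). It ended for N4bp2l1 without MkP replicate 2 (-0.89) or STHSC replicate 2 (-0.72). Tapt1 lost it without LTHSC replicate 2, MkE replicate 3 or MkP replicate 1 (-0.87 to -0.95). Usp3 lost it without CLP replicate 1, MkP replicate 3, PreCFUE replicate 1, ProE replicate 3 or STHSC replicate 2 (-0.67 to -0.96).

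A further 25 genes were called lower in 15 comparisons, and CLP was the missing group for 17 of them. Lgals1 was at 4.67, 5.91 and 3.94 in MkP against 10.40 to 10.77 in MkE and 8.48 to 9.05 in PreCFUE, and ProE (mean 5.05) was the group from which it did not differ. St8sia4, which adds polysialic acid to surface proteins, was at 4.86, 5.20 and 4.13, again with ProE as the exception (4.20). Ugcg was at 4.32, 5.67 and 4.44, the lowest mean of all groups.

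Against the mean, which includes the lymphoid and myeloid groups, lymphoid and myeloid genes were called lower but not higher in most of their lists. In the early lymphoid list 12 of 15 genes were lower than the mean and 1, Mef2c, higher (10.98, 11.24 and 10.88, difference 2.13); against MkE 2 were lower and 2 higher. Ikzf1, a lymphoid zinc finger factor, was at 9.21, 8.74 and 8.55, the lowest of 17 group means (-1.85, and -0.71 with its probe sets averaged). Irf8, which directs monocytes and dendritic cells, was at 4.35, 3.19 and 4.70 (-3.91), and Satb1, a chromatin organiser of lymphocytes, at 4.60, 5.06 and 4.11 (-3.88). Cd53, a pan-leukocyte tetraspanin, was at 3.95, 4.21 and 4.12 (-4.18), close to MkE (3.23 to 4.62) and to PreCFUE (2.91 to 3.17). The MHC class II list had 5 of 9 lower, the B lineage list 7 of 13 and the monocyte list 7 of 13, with none higher in any of the 3. Of 11 T lineage genes 2 were lower and of 11 NK genes 4, again with none higher, beside 7.53% of all genes called lower. Against MkE, 2 MHC class II genes and 1 B lineage gene were lower and 2 monocyte genes higher, with no other calls in these lists. Against PreCFUE none was lower. Higher were 2 MHC class II, 2 B lineage, 4 monocyte, 1 T lineage and 1 NK gene, beside 5.19% of all genes. The 4 monocyte calls became 2 with probe sets averaged or without MkP replicate 3. The 4 NK calls became 1 with a floor of 16 on the intensities, 1 against the mean of the other 44 arrays, 1 without IgM+SP, CD4 and NKmature, and 0 with the sex-transcript class as a block, and the 2 T lineage calls became 4 without MkP replicate 3.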

How the data were processed

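RNA from 2000 cells per array was measured on 47 Affymetrix arrays in 17 groups. The authors deposited linear intensities, normalized across arrays with RMA after dual amplification, per the series' design text, which names no software or version. These intensities were turned to log2 without further scaling. Probe sets were named from the platform annotation: 34958 of 45101 had 1 gene symbol, 932 had several and 9211 were not named. Each gene was read from its brightest probe set, and genes whose group means never passed the median of all log2 values (3.89) were left out, leaving 13949 of 18194.

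limma 3.58.1 (R 4.3.3) was used to fit the 17 group means together, and p-values were Benjamini-Hochberg adjusted over all genes. Calls needed an adjusted p under 0.05 and a 2-fold difference. In data simulated for the comparison with the mean of the other groups, 98% of 100 genes changed by 1.5 on the log2 scale were recovered over 13949 genes. The share was 96% for the comparison with MkE and 94% for that with PreCFUE. The call against each of the 16 groups was not simulated. Precision is limited by the number of arrays. Genes were named in the text where they were called in all or 15 of the comparisons, had the largest changes, or belonged to the lists; the members and lists were chosen with earlier results of these data known. Promoters came from RefSeq (GRCm38.p6). Alternatives covered probe set averaging, filters, scaling, an intensity floor, the spread model, blocks, other averages of the comparison groups and leaving out each array.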

Additional observations from a re-analysis of the deposited data

Results flagged for a closer look

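For named genes, groups of at least 4 arrays that bear on their comparisons were searched for a single array standing apart from its group. Of 30 pairs of a gene and a group, 2 passed Dixon's critical value, and chance alone passes about 1 in 20. Vwf stood at 7.47 on MkE replicate 3 and between 6.79 and 6.90 on the other MkE arrays, still below every MkP array. Kcnj5 stood at 3.86 on PreB replicate 4, the highest value outside MkP, where it was between 5.02 and 6.48.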

How the results depend on the processing

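None of the 84 gene results followed through the alternatives changed sign. Among other list members called against the mean, several did change sign under at least 1 alternative. F13a1 went from -1.43 to 0.04 with the sex-transcript class as a block. Over the alternatives Ccr9 ran from -2.04 to 2.04, Hspa1b from -2.91 to 1.17, Klre1 from -1.12 to 0.77 and Insig1 from -1.29 to 0.57. Klrd1, Egr2 and Ube2c changed sign as well. The balance of calls against the mean turned from 489 higher and 1050 lower to 847 and 726 after quantile normalization. Of 84 gene results, 67 kept their call throughout. Averaging probe sets gave 303 genes higher than the mean of the other groups, 430 than LTHSC, 309 than STHSC, 265 than LMPP, 472 than PreCFUE, 499 than GMP, 1190 than CLP, 845 than ProB and 642 than ETP, with 234 higher and 726 lower than MkE, 254 and 1200 than GM, and 1 gene lowest of all groups. Repeating quantile normalization gave 847 higher than the mean, 1375 than LTHSC, 645 than LMPP, 2093 than ProB and 1688 than ETP; 905 lower than PreCFUE, 1447 than CFUE and 1512 than ProE; 728 higher and 638 lower than MkE, 1331 and 1360 than GMP, 783 and 959 than GM, 2190 and 1782 than NKmature; and 40 genes highest of all. With the sex-transcript class as a block, 827 were higher and 2324 lower than the mean, 1591 and 3670 than LTHSC, 1666 and 2983 than STHSC, 1387 and 3150 than LMPP, 1272 and 3492 than GMP, with 1863 lower than CLP and 3199 lower than ETP, 38 highest and 26 lowest. Of the 38 highest under that block, 19 were among the 23 named above, and of the 26 lowest 5 were among the 8. The calls it ended were those of Ctdspl (smallest difference 0.59), Psd3 (0.58), Tubb1, Ufsp1, Gramd4, Ptger4 and Usp3. Fitting every probe set on its own, chosen after seeing the data, gave 38 genes highest. The cause of these changes was not tested. Counts under the block rest on a step between Xist and Eif2s3y arrays that was set by the 4 PreB arrays.

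Leaving out 1 array gave 481 to 538 genes higher and 907 to 1360 lower than the mean, 20 to 24 highest, 5 to 12 lowest (5 without STHSC replicate 2, 12 without MkP replicate 2) and 424 to 970 higher than STHSC (424 without STHSC replicate 1). With a replicate block, 485 were higher and 1019 lower than the mean, 24 highest and 7 lowest. Deviations of MkP arrays from their group mean were compared with those of same-numbered arrays, in the other groups with at least 3 arrays. These deviations correlated at -0.182 to 0.222. Groups with fewer arrays were not covered, so whether same-numbered arrays share more than a number is not settled. Only 3 MkP arrays, 2 in many groups, and sex that goes with the group in 9 comparisons limit what can be told.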

Other observations

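Of 16 interferon-stimulated genes, 5 were called lower than MkE and none higher (median -0.76), beside 8.55% of all genes called lower. The 5 became 2 after quantile normalization, 8 after centring and 3 without MkP replicate 1 or 3. Of 17 genes of mitochondrial respiration, none was called against the mean (median -0.33). Lower than in PreCFUE were 7 (median -0.96), beside 11.7% of all genes. The 7 became 1 after quantile normalization, 11 after centring and 3 without MkP replicate 3. Of 27 DNA replication genes, 17 were higher than in LTHSC and none lower (median 1.19), beside 5.99% of all genes called higher. Among these 17, 9 lost the call with probe sets averaged and 6 without LTHSC replicate 1. Against PreCFUE 4 were lower and none higher (median -0.51), beside 11.7% of all genes called lower. The 4 became 2 after quantile normalization.

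PreB replicate 4 stood above the other PreB arrays for Pf4 and Ppbp, both platelet chemokines. It read 10.26 for Pf4 and 8.63 for Ppbp, while the other 3 PreB arrays were between 3.71 and 5.02 for Pf4 and between 2.71 and 5.11 for Ppbp.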
